A study of Mus musculus with 24 samples.

Results

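Mouse pharyngeal arches labelled heterozygous for a Dlx5 knockout were compared with wild type arches, which took 8 of the 24 RNA-seq libraries of the series. The 4 libraries labelled Dlx5 heterozygous carried 1 mutant and 1 wild type Dlx5 allele and 2 wild type Kat6a alleles, and the 4 wild type libraries carried wild type alleles of both genes. All 8 hold poly(A) RNA from arches 1 and 2 of female C57BL/6 embryos at stage E10.5. The other 16 libraries of the study, from Kat6a heterozygous, double heterozygous, Dlx5 homozygous and Kat6a homozygous embryos, entered the fit to estimate the batch effect and the spread between replicates. The embryos came from 2 mouse facilities, which the labels give as batches. Dlx5 heterozygous replicate 4 belonged to batch 1, whereas Dlx5 heterozygous replicates 1 to 3 and all wild type libraries belonged to batch 2, so each comparison was made over all libraries with a batch term and again within batch 2. The labels do not describe the knockout allele, the number of embryos per library or the origin of the replicate numbers.

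The pharyngeal arches are embryonic swellings filled largely by cranial neural crest mesenchyme, and the first and the second give rise to the jaws, the middle ear and part of the hyoid skeleton. Dlx genes encode homeodomain transcription factors that act in nested domains of this mesenchyme: Dlx1 and Dlx2 along the whole arch, Dlx5 and Dlx6 in its lower part, and Dlx3 and Dlx4 nearer the tip. Endothelin 1 from the epithelium and core of the arch signals through its receptor Ednra on crest cells and lies upstream of Dlx5 and Dlx6, which in turn are required for lower jaw identity.

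The 8 libraries held 10.4 to 28.2 M counts assigned to genes, with the highest total in wild type replicate 1 and the next, 16.7 M, in Dlx5 heterozygous replicate 4. Levels are given as CPM, counts relative to the TMM-scaled library total. The defining genes of arch mesenchyme were high in both groups: Prrx1 averaged 764 CPM in wild type and 767 CPM in labelled heterozygous libraries, and Twist1 averaged 192 and 191 CPM. Cardiac markers summed to between 2.32 and 4.96 CPM in any of the 8 libraries. Wild type replicate 2 and Dlx5 heterozygous replicate 2 stood apart. Their summed level of 18 neuron and glia markers was 609 and 509 CPM, against 126 to 147 CPM in the other wild type libraries and 154 to 237 CPM in the other labelled heterozygous ones. Wild type replicate 4 had the highest summed level of erythroid markers, 5092 CPM against 2033 to 3300 CPM in the other wild type libraries and 2064 to 2942 CPM in the labelled heterozygous ones. In these bulk samples, fewer cells of a type and less RNA per cell cannot be told apart.

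Dlx5 RNA lay within the same range in both groups. Dlx5 (Entrez gene 13395, chromosome 6, 6877801 to 6882068 in GRCm38) was at 64.7, 79.0, 64.6 and 69.1 CPM in wild type replicates 1 to 4 and at 69.0, 76.0, 58.3 and 64.3 CPM in labelled heterozygous replicates 1 to 4. The groups overlapped, and replicate 2 was the highest of each. The log2 fold change was -0.005 (SE 0.080, edgeR adjusted p = 0.990), with a 95% interval from -0.17 to 0.16. Within batch 2 it was -0.04 (SE 0.09, edgeR adjusted p = 0.946), with an interval from -0.23 to 0.16. Both intervals exclude -1, the log2 fold change that the loss of the reads of 1 of 2 alleles would give. In the Dlx5 homozygous libraries, all of batch 1, the Dlx5 log2 fold change over wild type was 0.03 (SE 0.11, edgeR adjusted p = 0.947). By these labels, Dlx5 reads were counted without a wild type allele. Counts summed over the whole gene cannot show which allele or part of the gene the reads came from. Dlx5 RNA therefore did not check the genotype labels, and the libraries are called by their labels throughout.

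None of the other Dlx family genes passed the test. Dlx6os1, the long noncoding RNA also known as Evf2 that runs antisense through Dlx6, was at 54.5, 43.2, 54.0 and 43.7 CPM in wild type and at 46.2, 40.7, 42.6 and 34.3 CPM in labelled heterozygous libraries. The ranges overlapped, with the lowest value in the batch 1 library. Its log2 fold change was -0.23 (SE 0.09, edgeR adjusted p = 0.329), and within batch 2 it was -0.19 (SE 0.11, edgeR adjusted p = 0.672). Dlx3, which acts in the distal arch and in epidermis, was at 94.2 to 108.6 CPM in wild type and at 76.5 to 98.2 CPM in labelled heterozygous libraries, a log2 fold change of -0.21 (SE 0.08, edgeR adjusted p = 0.315). These were the 2 of 8 family members with an unadjusted p under 0.05, a level that 11.3% of all genes tested reached. The remaining log2 fold changes were -0.28 (SE 0.15) for Dlx4, -0.14 (SE 0.09) for Dlx2, 0.01 (SE 0.07) for Dlx1, 0.11 (SE 0.10) for Dlx6 and 0.22 (SE 0.17) for Dlx1as, which is transcribed antisense to Dlx1. The sources used here do not say whether counting used strand, so Dlx6os1 and Dlx6, and Dlx1as and Dlx1, may share reads. Per kilobase of the deposited gene length, the wild type order was Dlx2 at 53.5, Dlx5 at 49.3, Dlx3 at 38.6, Dlx6 at 26.9, Dlx1 at 22.3, Dlx6os1 at 11.5, Dlx1as at 7.18 and Dlx4 at 2.56 CPM per kilobase. The order was the same in the labelled heterozygous libraries.

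**Figure D1:**
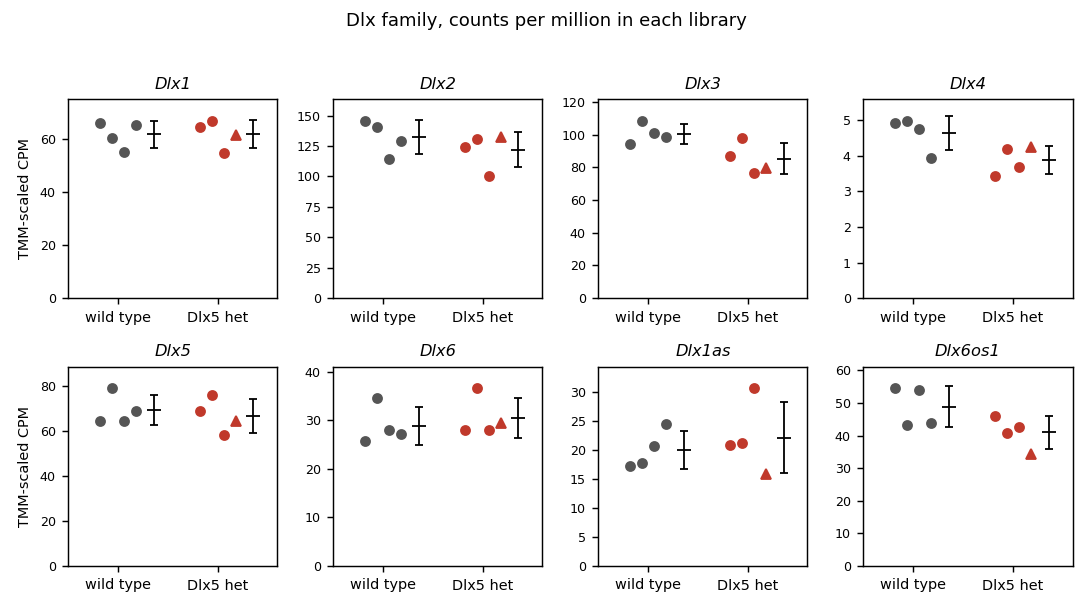
TMM-scaled CPM (vertical axes, from 0) of the 8 Dlx family genes in each wild type (grey) and labelled Dlx5 heterozygous (red) library. Points stand for libraries in replicate order, the triangle for the batch 1 library, and the bar beside each group for mean and SD (n = 4); Dlx5 ranges from 64.6 to 79.0 CPM in wild type and from 58.3 to 76.0 CPM in labelled heterozygous libraries.

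Over all genes, no change passed the threshold of an adjusted p under 0.05. edgeR tested 14506 genes over all libraries and called 0%, with a smallest adjusted p of 0.109, and 15000 genes within batch 2, again 0%, with a smallest adjusted p of 0.0586. At an unadjusted p under 0.05 there were 1645 genes over all libraries, 11.3% of those tested (5.75% higher and 5.59% lower), and 1169 within batch 2, or 7.79% (4.07% higher and 3.72% lower). The tools differed: over all libraries DESeq2 called 31 genes, 17 higher and 14 lower, or 0.214%, and limma voom called 0, with 1157 at an unadjusted p under 0.05. Within batch 2 DESeq2 called 4 genes, or 0.0267%, and limma voom 3, or 0.02%. The median SE of a log2 fold change was 0.10, and 95.4% of the 13739 genes with a mean of at least 1 CPM had a 95% interval inside -1 to 1. Without Dlx5 heterozygous replicate 3 the number of genes at an unadjusted p under 0.05 was 887 over all libraries and 477 within batch 2. The shares of all genes higher and lower over all libraries were 3% and 3.07% without that library. They were 6.54% and 8.69% without Dlx5 heterozygous replicate 2, 5.23% and 5.15% without replicate 1, and 5.44% and 5.12% without replicate 4. Without wild type replicates 1, 2, 3 and 4 they were 7.79% and 7.55%, 5.32% and 3.98%, 5.93% and 6.98%, and 5.28% and 4.72%. List counts with a library left out, given below, stand beside these shares, and list counts within batch 2 beside the batch 2 shares.

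The 12 higher and 12 lower genes with the smallest p therefore describe where the groups lay furthest apart relative to their spread. They were chosen on the same values, so their separation is a description. Of the 12 higher genes, 10 had all 4 labelled heterozygous libraries above all 4 wild type libraries, and of the 12 lower genes 11 had them all below. Over all genes tested, 1.88% lay above and 1.74% below in this way.

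Among the higher genes, Runx2, the transcription factor that starts bone formation, had the smallest p. It was at 2.51, 2.78, 2.42 and 2.44 CPM in wild type and at 4.37, 3.92, 6.35 and 5.49 CPM in labelled heterozygous libraries. The groups did not overlap, and the wild type values lay within a narrow range. The log2 fold change was 1.01 (SE 0.19, edgeR adjusted p = 0.109; DESeq2 adjusted p = 0.00974), and 0.94 (SE 0.22, edgeR adjusted p = 0.438) within batch 2. Creb5, a transcription factor of the CREB family known for a role in joint cartilage, was at 1.85 to 2.59 CPM in wild type and at 3.05 to 4.60 CPM in labelled heterozygous libraries, a log2 fold change of 1.01 (SE 0.22). Fibin, a secreted protein first described in fin bud development, was at 1.51 to 2.37 and 2.63 to 4.14 CPM, a log2 fold change of 1.05 (SE 0.21). Both also had groups that did not overlap.

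The other higher genes were expressed at higher levels and lay apart by less. Col1a2, a chain of type I collagen, was at 215, 248, 242 and 181 CPM in wild type and at 281, 323, 298 and 221 CPM in labelled heterozygous libraries. The 3 batch 2 libraries lay above every wild type library, and the batch 1 library lay inside the wild type range. Over all libraries the log2 fold change was 0.43 (SE 0.09, edgeR adjusted p = 0.109). Pappa, a protease that releases insulin-like growth factors from a binding protein, had a log2 fold change of 0.80 (SE 0.18), with its highest value, 10.4 CPM, in Dlx5 heterozygous replicate 3. Cacna1g, a T-type calcium channel subunit, stood at 53.3 to 69.7 CPM in wild type and at 78.0 to 131.3 CPM in labelled heterozygous libraries, with a log2 fold change of 0.75 (SE 0.17). Mylip, an E3 ubiquitin ligase that acts on the LDL receptor, had a log2 fold change of 0.49, Apcdd1, a membrane inhibitor of Wnt signalling, of 0.44, and Mertk, a receptor kinase for the uptake of dying cells, of 0.40. The 3 remaining genes encode cell-surface proteins known from neurons or the inner ear: Nlgn3 at 0.57, Slitrk6 at 0.53 and Adam23 at 0.53.

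Among the lower genes, Mpp6, a membrane scaffold of the MAGUK family, had the smallest p. It was at 101.2, 97.8, 101.8 and 99.0 CPM in wild type and at 80.3, 80.9, 66.3 and 95.1 CPM in labelled heterozygous libraries, without overlap, and the batch 1 library lay closest to wild type. The log2 fold change was -0.36 (SE 0.07, edgeR adjusted p = 0.109). Hopx, a homeodomain-only protein that does not bind DNA, was at 5.56, 4.34, 4.15 and 4.63 CPM in wild type and at 2.33, 1.87, 2.21 and 2.51 CPM in labelled heterozygous libraries. The groups did not overlap, and the batch 1 library lay beside the other 3. Its log2 fold change was -1.22 (SE 0.25, edgeR adjusted p = 0.109; DESeq2 adjusted p = 0.0146).

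Of the other lower genes, Npm1, the nucleolar protein nucleophosmin, was at 801 to 913 CPM in wild type and at 677 to 779 CPM in labelled heterozygous libraries, a log2 fold change of -0.26 (SE 0.07). Eif4ebp1, a repressor of cap-dependent translation downstream of mTOR, had -0.34 (SE 0.08), and its lowest value, 38.7 CPM, was in Dlx5 heterozygous replicate 3. Ruvbl1, an ATPase of chromatin-remodelling and assembly complexes, had -0.35 (SE 0.08), and Prelid1, a carrier of lipids between mitochondrial membranes, had -0.26 (SE 0.06). The log2 fold changes of Rufy1, Frmd7, Nubp2 and Crb2 lay between -0.51 and -0.29.

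**Figure D2:**
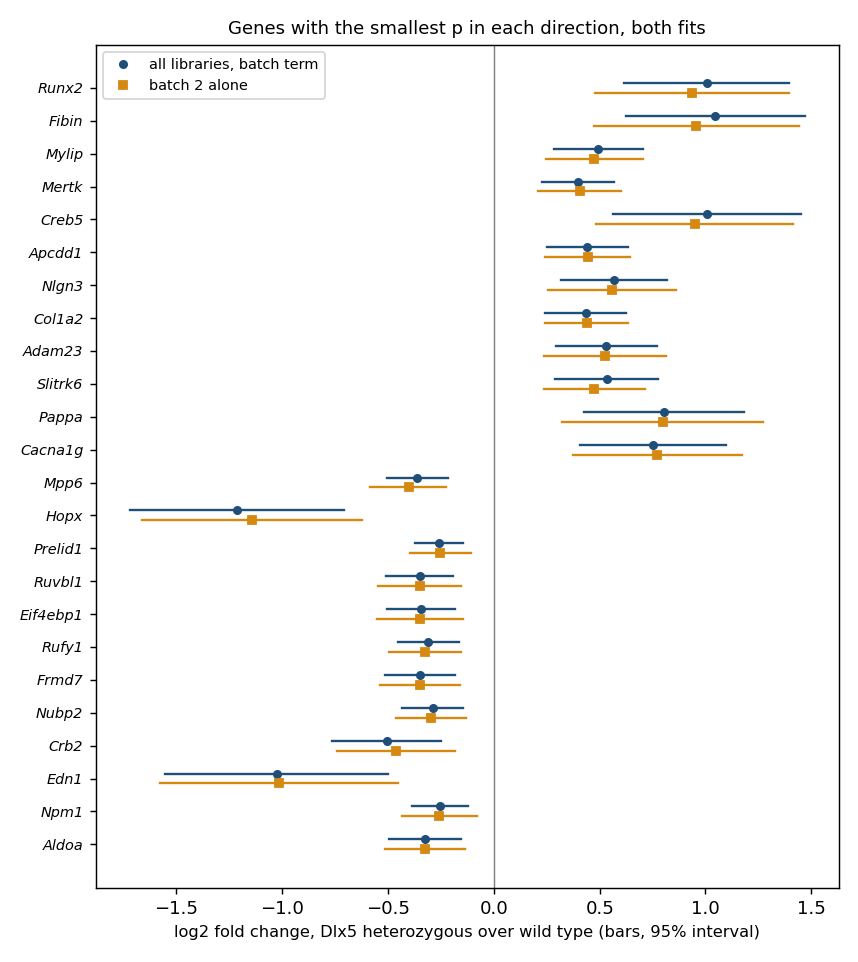
Log2 fold change of labelled Dlx5 heterozygous over wild type (horizontal axis) for the 12 higher and the 12 lower genes with the smallest p. Blue circles are from all libraries with a batch term and orange squares from batch 2 alone, with bars for 95% intervals; each gene keeps its direction in both fits, from 1.05 for Fibin to -1.22 for Hopx over all libraries.

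In the endothelin pathway, which lies upstream of Dlx5, the ligand and its receptor stood apart in opposite directions, and neither passed the test. Edn1, the ligand (chromosome 13, 42301476 to 42307990 in GRCm38), was at 3.62, 3.03, 2.25 and 2.52 CPM in wild type and at 1.58, 1.16, 1.56 and 1.91 CPM in labelled heterozygous libraries. The groups did not overlap, and all values were low. Its log2 fold change was -1.03 (SE 0.26, edgeR adjusted p = 0.214) over all libraries and -1.02 (SE 0.27, edgeR adjusted p = 0.495) within batch 2. Ednra, the receptor on crest cells, was at 49.8, 52.0, 57.2 and 44.3 CPM in wild type and at 65.1, 66.9, 60.9 and 58.2 CPM in labelled heterozygous libraries, again without overlap. Ednra lay higher by 0.34 on the log2 scale (SE 0.10, edgeR adjusted p = 0.225). Of the 12 pathway genes these 2 had an unadjusted p under 0.05, a level that 11.3% of all genes tested reached. The median log2 fold change of the list was -0.04, against 0.008 over all genes tested. Ece1, which cleaves the ligand precursor, had a log2 fold change of -0.08, and the downstream factors Mef2c and Hand2 had 0.01 and -0.14. Under the 36 alternatives fitted for each named gene, adjusted p lay from 0.103 to 0.698 for Edn1 and from 0.138 to 0.698 for Ednra. With replicate number as a block within batch 2, a fit described further on, edgeR adjusted p was 0.0939 and 0.0778.

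The sequences before the start sites of Dlx6os1 and Edn1 are shown because these are the Dlx5-neighbouring RNA and the signal upstream of Dlx5 described above, and because both hold a core motif that homeodomain proteins can bind. Each is the 250 bases before a RefSeq start in GRCm38.p6, at chr6:6869534-6869783 on the minus strand for Dlx6os1, the farther upstream of its 2 listed starts, and at chr13:42301226-42301475 on the plus strand for Edn1. The RefSeq span of Dlx6os1 runs from 6820543 to 6871627, so its window lies inside the gene. Capitals mark TAATTA, which reads the same on both strands, and TAATTG, searched on both strands (CAATTA on the other).
Dlx6os1: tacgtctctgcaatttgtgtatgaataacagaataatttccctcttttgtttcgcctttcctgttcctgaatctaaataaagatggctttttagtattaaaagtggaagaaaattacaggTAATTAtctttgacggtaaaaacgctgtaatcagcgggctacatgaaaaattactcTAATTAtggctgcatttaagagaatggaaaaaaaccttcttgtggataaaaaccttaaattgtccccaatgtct
Edn1: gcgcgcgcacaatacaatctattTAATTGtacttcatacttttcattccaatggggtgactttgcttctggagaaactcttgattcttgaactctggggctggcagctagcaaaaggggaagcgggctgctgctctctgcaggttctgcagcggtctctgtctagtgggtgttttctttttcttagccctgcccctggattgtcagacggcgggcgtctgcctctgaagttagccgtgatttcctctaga
The Dlx6os1 window holds 2 matches and the Edn1 window 1. Of all 32851 RefSeq windows of this length, 3697 hold a match, or 11.3%. Of the 12 higher genes 8 had entries, with a match in 0 of 9 windows, and of the 12 lower genes 10 had entries, with a match in 3 of 16 windows, or 18.8%. A match is a description of the letters and not evidence of binding.

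Patterning genes of the lower and upper arch were close to their wild type levels for the most part. Of 23 mandibular patterning genes, 2 were higher and 1 lower at an unadjusted p under 0.05, against 5.75% and 5.59% of all genes. The list's median log2 fold change was 0.10. The higher ones were Gsc, a homeobox gene required for lower jaw and ear structures, at 0.66 (SE 0.25), and Foxf2, a forkhead gene of palate mesenchyme, at 0.35 (SE 0.15). The lower one was Hand1, a distal arch transcription factor, which was at 34.6 to 49.9 CPM in wild type and at 27.8 to 38.5 CPM in labelled heterozygous libraries, a log2 fold change of -0.36 (SE 0.15, edgeR adjusted p = 0.385). Other lower jaw genes that depend on Dlx5 and Dlx6 in the arch showed small differences: Hand2 at -0.14, Gbx2 at -0.20 and Alx4 at 0.29. Each of these 6 genes had overlapping groups. The counts of the list moved with single libraries, and the shares of all genes moved too. The list held 6 higher and 0 lower without wild type replicate 2, 0 and 3 without wild type replicate 1, and 0 and 0 without Dlx5 heterozygous replicate 3. Without wild type replicate 4 it held 1 and 0. Without Dlx5 heterozygous replicate 4 it held 1 and 1, and within batch 2 it held 0 and 1, against 4.07% and 3.72% of all genes.

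Of 19 maxillary patterning genes, 3 were higher and 0 lower at an unadjusted p under 0.05, against 5.75% and 5.59% of all genes. The list's median was 0.10. Pax9, a paired-box gene of palate and tooth mesenchyme and of pharyngeal endoderm, was at 8.28, 8.34, 8.73 and 7.49 CPM in wild type and at 11.6, 13.5, 10.1 and 11.4 CPM in labelled heterozygous libraries. The groups did not overlap. Its log2 fold change was 0.58 (SE 0.14, edgeR adjusted p = 0.151; DESeq2 adjusted p = 0.0476) and 0.51 (SE 0.13) within batch 2. Six2 and Foxd1, transcription factors of facial mesenchyme, had 0.43 (SE 0.19) and 0.34 (SE 0.12) with overlapping groups. Pou3f3, an upper jaw marker, was at -0.13 (SE 0.11). The list held 5 higher without wild type replicate 2 and 2 to 4 with each other library left out. Within batch 2 it held 1 higher, against 4.07% of all genes.

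Genes of the skeletal lineage and its matrix stood out by count. Of 13 tested skeletal genes, 6 were higher and 0 lower at an unadjusted p under 0.05, against 5.75% of all genes higher, and the median log2 fold change was 0.23. Besides Runx2 and Col1a2 these were Postn, a matricellular protein of periosteum, at 0.30 (SE 0.07), Col3a1 at 0.23 (SE 0.06), Col1a1 at 0.40 and Runx1 at 0.33. Postn was at 27.6 to 28.9 CPM in wild type and at 30.8 to 37.3 CPM in labelled heterozygous libraries, without overlap. The cartilage genes Sox9, Sox5, Sox6, Col2a1 and Col9a1 had log2 fold changes between -0.10 and 0.07, and the osteoblast factor Sp7 had 0.26. Within batch 2 the count was 5 of 13 with a median of 0.16, against 4.07% of all genes higher. Leaving out any one of the 8 libraries left 4 to 6 higher and 0 lower. The median was 0.11 without wild type replicate 3.

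All collagen genes, a list taken by symbol after the values were seen, had a median of 0.21. Of 38 genes, 17 were higher and 0 lower, against 5.75% and 5.59% of all genes. They included chains of fibrillar collagen (Col1a1, Col1a2, Col3a1, Col5a1), of the microfibril collagen VI (Col6a1 at 0.32, Col6a2 at 0.49 and Col6a3 at 0.96) and of epithelial anchoring structures (Col7a1 at 0.77, Col17a1 at 1.22). Col17a1 was at 2.233, 2.495, 7.546 and 2.329 CPM in labelled heterozygous libraries and at 1.147 to 2.439 CPM in wild type. Col7a1 was at 7.258, 3.832, 10.03 and 4.478 CPM against 2.335 to 4.745 CPM. Both groups overlapped, with Dlx5 heterozygous replicate 3 highest. Col6a3 was at 12.6, 15.5, 14.2 and 7.91 CPM in wild type and at 21.4, 21.5, 30.0 and 15.7 CPM in labelled heterozygous libraries. The groups did not overlap, with wild type replicate 4 lowest and Dlx5 heterozygous replicate 3 highest. Without Dlx5 heterozygous replicate 3 the count was 7 higher and the median 0.14, and without wild type replicate 4 it was 10 higher and the median 0.20. Col6a3 had an edgeR adjusted p of 0.162 and a DESeq2 adjusted p of 0.00974.

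**Figure D3:**
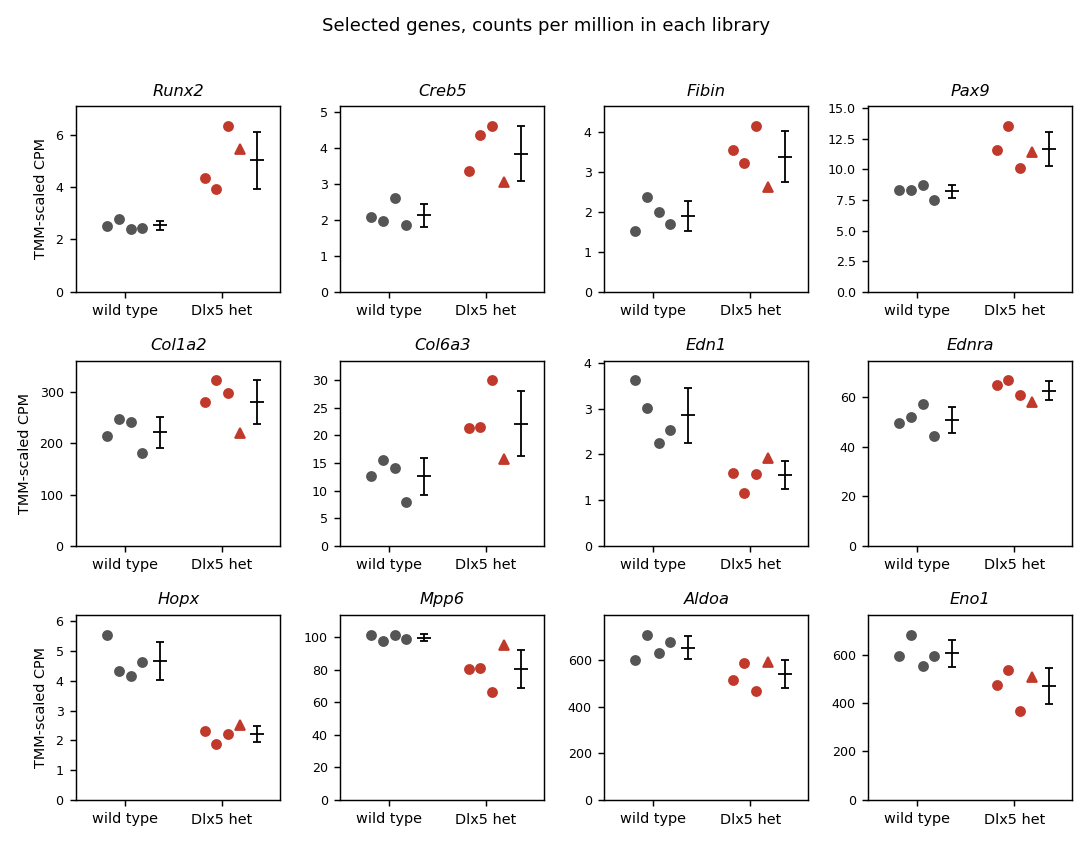
TMM-scaled CPM (vertical axes, from 0) of 12 genes named in the text in each wild type (grey) and labelled Dlx5 heterozygous (red) library. Points stand for libraries in replicate order, the triangle for the batch 1 library, and bars for mean and SD (n = 4); of the 12 genes only Col1a2 has overlapping groups, and the gap is narrow for Aldoa, whose highest labelled heterozygous value is 593.7 CPM and lowest wild type value 598.5 CPM.

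In the hedgehog and Wnt pathways, which shape the arch, the genes that stood apart lay higher. The median of 19 hedgehog genes was 0.10. At an unadjusted p under 0.05, 6 were higher and 0 lower, against 5.75% and 5.59% of all genes. They were the targets and effectors Gli1 at 0.30 (SE 0.12) and Ptch1 at 0.24 (SE 0.10), the co-receptor Boc at 0.26 (SE 0.08), and the forkhead genes Foxl1 at 0.85 (SE 0.26), Foxd1 and Foxf2. Boc was at 25.6 to 29.9 CPM in wild type and at 30.0 to 37.1 CPM in labelled heterozygous libraries. Within batch 2 the count was 3 of 19, against 4.07% of all genes higher. Leaving out Dlx5 heterozygous replicate 3 gave 3 over all libraries. Leaving out wild type replicate 4 gave 4 higher and 1 lower, with a median of 0.04.

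Of 17 Wnt genes, 5 were higher and 0 lower, against 5.75% and 5.59% of all genes, and the list's median was 0.10. Axin2, a feedback target of the canonical pathway, was at 92.0, 94.1, 101.8 and 88.9 CPM in wild type and at 126.0, 121.7, 107.7 and 104.9 CPM in labelled heterozygous libraries, without overlap. Axin2 lay higher by 0.31 on the log2 scale (SE 0.08, edgeR adjusted p = 0.217). The secreted antagonists Sfrp1 and Sfrp2 had 0.25 (SE 0.07) and 0.24 (SE 0.10), the non-canonical ligand Wnt5a had 0.15 (SE 0.07), and the agonist Rspo3 had 0.31. Within batch 2 the count was 2 of 17, against 4.07% of all genes higher. Leaving out Dlx5 heterozygous replicate 3 gave 2 over all libraries, and leaving out wild type replicate 1, 3 or 4 gave 3, with medians from 0.04 to 0.18 over the 8 libraries left out in turn. The BMP and FGF lists held 0 higher and 1 lower of 20 and 0 of 17, with medians of 0.04 and 0.03. Without wild type replicate 1 the BMP list held 2 higher and 2 lower.

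Retinoic acid genes stood on both sides. Aldh1a3, which makes retinoic acid in facial epithelium and the eye, was at 38.3, 14.5, 25.9 and 32.8 CPM in wild type and at 12.6, 7.84, 13.6 and 17.2 CPM in labelled heterozygous libraries. Replicate 2 was the lowest of each group, and wild type replicate 2 lay inside the labelled heterozygous range. Over all libraries its value on the log2 scale was -1.39 (SE 0.38, edgeR adjusted p = 0.225). When the 4 neuron-rich replicate 2 libraries of the series were left out, the value within batch 2 was -1.31, with an edgeR adjusted p of 0.0478. Of 14 genes of the list, 4 were higher and 1 lower, against 5.75% and 5.59% of all genes. The higher ones were the synthesis enzymes Aldh1a2 at 0.87 (SE 0.36) and Rdh10 at 0.28 (SE 0.12), the uptake receptor Stra6 at 0.32 (SE 0.13), and the degrading enzyme Cyp26b1 at 0.38. The count was 0 higher without Dlx5 heterozygous replicate 3, 1 without wild type replicate 4, and 2 without wild type replicate 1 or Dlx5 heterozygous replicate 1. Within batch 2 it was 3 higher, against 4.07% of all genes. Aldh1a2 had its highest values in replicate 3 of both groups, at 3.81 CPM in wild type and 7.64 CPM in the labelled heterozygous library.

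Of 23 palate and cleft genes, 4 were higher and 0 lower, against 5.75% and 5.59% of all genes. Pdgfc, a ligand for the crest receptor Pdgfra, was at 123.7 to 143.7 CPM in wild type and at 143.9 to 212.1 CPM in labelled heterozygous libraries, a log2 fold change of 0.36 (SE 0.14). The others were Pax9 and Foxf2, which other lists also hold, and the periderm factor Grhl3. The list's median was 0.11. Its count was 1 higher without Dlx5 heterozygous replicate 3 and 2 without wild type replicate 1. Within batch 2 it was 2 higher and 1 lower, against 4.07% and 3.72% of all genes.

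Several glycolytic enzymes lay lower, though none passed the adjusted test in this fit. Of 23 tested glycolysis and hypoxia genes, 8 were lower and 1 was higher at an unadjusted p under 0.05, against 5.59% of all genes lower, with a median log2 fold change of -0.16. Eno1, an enolase, was at 592, 683, 553 and 593 CPM in wild type and at 474, 534, 365 and 507 CPM in labelled heterozygous libraries. The groups did not overlap, and Dlx5 heterozygous replicate 3 was lowest, with a log2 fold change for the group of -0.40 (SE 0.11, edgeR adjusted p = 0.222). Aldoa, an aldolase, had -0.32 (SE 0.08, edgeR adjusted p = 0.217), Pgk1, phosphoglycerate kinase, -0.31 (SE 0.08), Pfkl, phosphofructokinase, -0.29 (SE 0.08), Ldha, lactate dehydrogenase, -0.28 (SE 0.09), Tpi1, triose phosphate isomerase, -0.27 (SE 0.09), and Pkm, pyruvate kinase, -0.24. The lactate exporter Slc16a3 had -0.24. Other enzymes of the list lay close to wild type: Hk1 at -0.04 (SE 0.08), Pfkfb3 at -0.01 (SE 0.06) and Pgam1 at -0.09 (SE 0.07). Gapdh had 0.05 (SE 0.20), with low counts: 8.18 to 10.18 CPM in wild type and 6.77 to 12.79 CPM in labelled heterozygous libraries. Its interval, from -0.349 to 0.455, holds the values of the lower enzymes other than Eno1. Gapdh therefore does not separate no change from a fall of their size. Hk2 at -0.19 (SE 0.12) and Pfkp at -0.24 (SE 0.17) had an unadjusted p over 0.05. Hypoxia targets outside the pathway lay on both sides of 0. The angiogenic factor Vegfa was the 1 higher gene, at 64.5 to 71.7 CPM in wild type and 78.2 to 90.1 CPM in labelled heterozygous libraries. Egln3, Ndrg1, Bnip3 and Ankrd37 had log2 fold changes between -0.05 and 0.14, and Slc2a1, P4ha1 and Car9 between -0.16 and -0.06. Pdk1, a kinase that limits the entry of pyruvate into the citric acid cycle, had -0.19 (SE 0.10). Within batch 2 Pdk1 had -0.21 (SE 0.07, edgeR unadjusted p = 0.00699), with all 3 labelled heterozygous libraries below wild type. Within batch 2 the counts were again 8 lower and 1 higher, against 3.72% and 4.07% of all genes. Leaving out any one of the 8 libraries left 6 to 9 lower, and the median was -0.09 without wild type replicate 4.

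Ribosomal protein and cell cycle genes had smaller negative medians. Ribosomal protein genes, taken by symbol after the values were seen, held 24 lower and 0 higher of 78, against 5.59% and 5.75% of all genes. Their median was -0.13. Wild type replicate 4 had the highest summed level of these genes, 13870 CPM against 11260 to 11990 CPM in the other wild type libraries and 10750 to 11840 CPM in the labelled heterozygous ones. Without it the count was 13 lower and the median -0.06. The median of 22 cell cycle genes was -0.06, and 3 were lower and 0 higher, against 5.59% and 5.75% of all genes. They were Mcm6 at -0.18 and Mcm5 at -0.13, subunits of the replicative helicase, and Ccne1, cyclin E1, at -0.16. The cell cycle count moved with single libraries. It was 0 lower without Dlx5 heterozygous replicate 3 (median -0.03), against 3.07% of all genes lower. It was 8 lower without Dlx5 heterozygous replicate 2 (median -0.11), against 8.69%, and 1 lower without wild type replicate 2, against 3.98%. Within batch 2 it was 1 lower, against 3.72% of all genes.

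**Figure D4:**
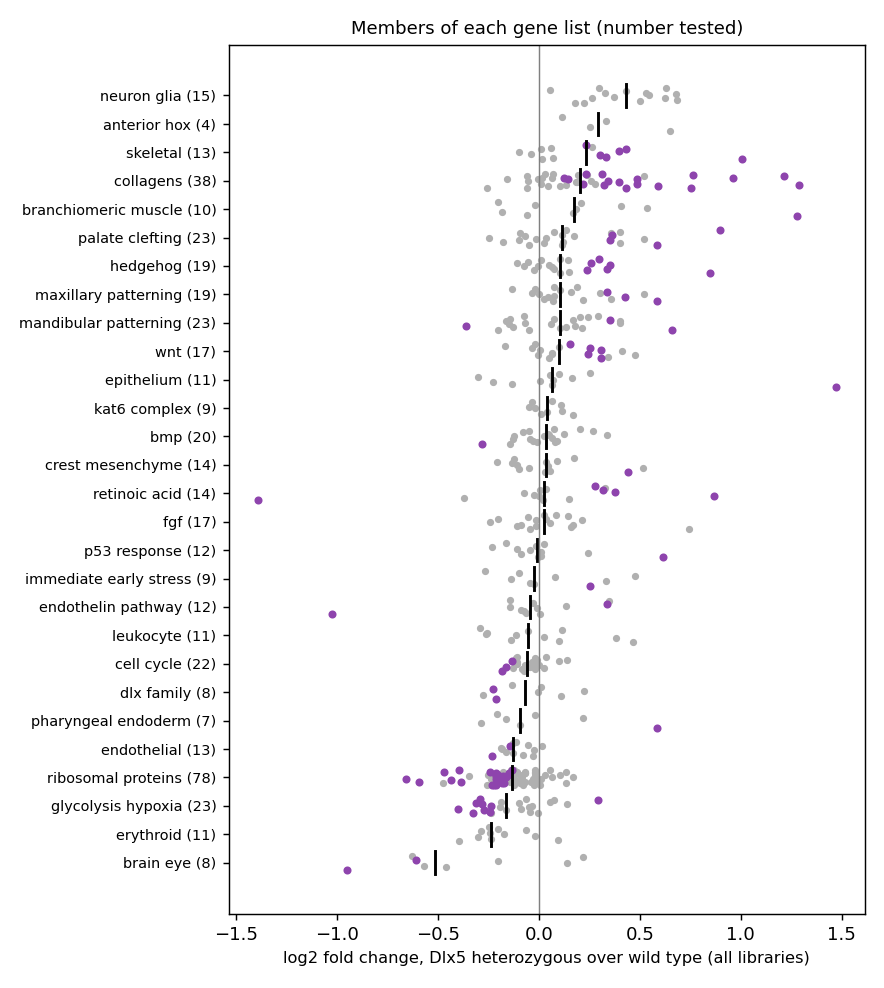
Log2 fold change of labelled Dlx5 heterozygous over wild type over all libraries (horizontal axis) for the members of each gene list with at least 4 tested genes (number tested in parentheses). Purple points have an unadjusted p under 0.05, grey points do not, and black lines are list medians, from 0.43 for neuron and glia markers to -0.52 for brain and eye markers; the skeletal list holds 6 purple points and the glycolysis and hypoxia list 9.

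Gene length moved with the comparison. In 11224 genes of at least 5 CPM, the median log2 fold change was -0.03 in the shortest tertile by length, -0.01 in the middle and 0.03 in the longest, and the Spearman correlation across genes, which are not independent, was 0.207. The 12 higher genes had a median length of 4062.5 bases and the 12 lower genes of 1771 bases, against 2846.5 bases over all genes tested. Collagen genes were long (median 5635 bases) and ribosomal protein genes short (706.5 bases). Within wild type, replicate 4 held short genes 0.124 above and long genes 0.15 below the wild type mean on the log2 scale, and replicate 1 lay the other way. With offsets that remove this trend, skeletal genes held 5 higher and 0 lower, collagen genes 15 higher, glycolysis and hypoxia genes 9 lower, and ribosomal protein genes 21 lower, while 5.61% of all genes were higher and 7.46% lower.

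Markers of other cell types differed between libraries more than between groups. All 15 tested neuron and glia genes had positive log2 fold changes, with a median of 0.43, and none had an unadjusted p under 0.05. The value turned on single libraries: without wild type replicate 2 alone the median was 2.66, with 8 of 15 higher at an unadjusted p under 0.05, and without Dlx5 heterozygous replicate 2 alone it was -0.31, with 0. Without wild type replicate 1 the median was 0.02, and without wild type replicate 3 or 4 it was 0.17. Without both replicate 2 libraries their median was 1.73, and 1 of them had an unadjusted p under 0.05, against 1653 of all 14622 genes tested there. Ppp1r17 and Grm2, genes known from neurons, were at 0 to 0.084 CPM in wild type replicates 1, 3 and 4 but at 13.7 and 10.2 CPM in wild type replicate 2. In labelled heterozygous replicates 1, 3 and 4 they were at 1.40 to 2.75 and 0.558 to 2.27 CPM. The 13 endothelial genes were negative in 12 cases, with a median of -0.13. At an unadjusted p under 0.05, 2 were lower, Tie1 and Cldn5, against 5.59% of all genes. Without Dlx5 heterozygous replicate 2, 0 were lower, against 8.69% of all genes. Erythroid genes were negative in 10 of 11 cases, with a median of -0.24 that was 0.08 without wild type replicate 4. Their part in the results above was not tested.

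Brain and eye markers had a median log2 fold change of -0.52, with 6 negative and 2 positive. The positive ones were Emx2 at 0.22 (SE 0.22) and En2 at 0.14 (SE 0.45). Emx2, the most highly expressed of the 8 tested, averaged 23.92 CPM in wild type and 27.55 CPM in labelled heterozygous libraries. The summed level of the list overlapped, at 43.1 to 52.4 CPM in wild type and 41.4 to 53.3 CPM in labelled heterozygous libraries. At an unadjusted p under 0.05, 2 of 8 were lower, against 5.59% of all genes. Without wild type replicate 1 the median was -0.26, with 0 lower. Pax6, an eye and forebrain factor, was at 0.736 to 1.94 CPM in wild type and at 0.446 to 1.31 CPM in labelled heterozygous libraries, a log2 fold change of -0.95 (SE 0.36). Epithelial markers summed to 445.7 to 604.6 CPM in wild type, to 665.6 CPM in Dlx5 heterozygous replicate 3 and to 433.9 to 613.0 CPM in the other labelled heterozygous libraries. Of 11 tested, 8 were positive and 3 negative, with a median of 0.06. At an unadjusted p under 0.05, 1 was higher and 0 lower, against 5.75% and 5.59% of all genes. The negative ones were Krt8 (-0.30), Krt18 (-0.23) and Cldn6 (-0.13). In Dlx5 heterozygous replicate 3, Krt8 (51.3 CPM) and Krt18 (52.4 CPM) lay inside the wild type range. Krt5, a basal keratin, was at 13.2 CPM in Dlx5 heterozygous replicate 3 and at 1.72 to 3.16 CPM in the other 7 libraries. Grhl3, a factor of the epidermal barrier, was at 31.6 CPM there, at 12.2 to 16.0 CPM in the other labelled heterozygous libraries and at 7.64 to 13.6 CPM in wild type. Its log2 fold change was 0.90 (SE 0.37) with that library and 0.47 without it, and that of Krt5 was 1.47 with it and 0.51 without it.

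**Figure D5:**
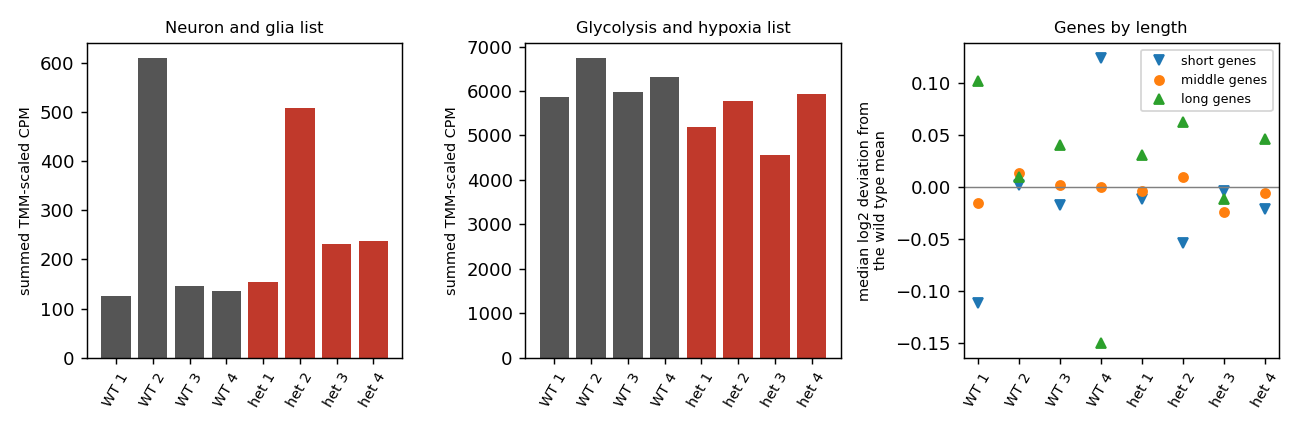
Values of each of the 8 libraries (wild type grey, labelled Dlx5 heterozygous red): summed TMM-scaled CPM of the neuron and glia list and of the glycolysis and hypoxia list (bars from 0), and the median log2 deviation from the wild type mean of short, middle and long genes (points). Replicate 2 of each group has the most neuron and glia RNA (609 and 509 CPM), and wild type replicate 4 has the widest spread between short and long genes.

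Within batch 2 the replicate numbers went with a shared deviation, so the comparison was also made with the number as a block. Deviations from the group means correlated at 0.235, 0.546 and 0.144 for replicates 1, 2 and 3, and both replicate 2 libraries were those rich in neuron markers. Some unmatched pairs also correlated: wild type replicate 4 with Dlx5 heterozygous replicates 3 (0.243) and 1 (0.148), and wild type replicate 3 with replicate 1 (0.127). The other unmatched pairs were negative, from -0.465 to -0.034. With the block edgeR called 45 of 15000 genes, or 0.3%, with 28 higher (0.187%) and 17 lower (0.113%). All 45 had the same direction in the fit of all libraries, and 37 had an unadjusted p under 0.05 within batch 2 without the block. Both fits hold the libraries on which the 45 were chosen, so this is a description and not independent support. With the block over all libraries, where replicate 4 did not correlate (-0.09), edgeR called 0, with a smallest adjusted p of 0.0562 and 1914 genes at an unadjusted p under 0.05.

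In that blocked fit within batch 2, some glycolytic enzymes fell: Eno1 by 0.44 on the log2 scale (edgeR adjusted p = 0.0101), Pfkl by 0.32 (edgeR adjusted p = 0.0225), Aldoa by 0.32 (edgeR adjusted p = 0.0434) and Tpi1 by 0.30 (edgeR adjusted p = 0.0434). These were 4 of the 24 listed glycolysis and hypoxia genes, against 0.113% of all genes. Pgm1, phosphoglucomutase, which was not on the list and was named after its value was seen, fell by 0.36 (edgeR adjusted p = 0.0443). Mpp6 fell by 0.41 (edgeR adjusted p = 0.0101). Col1a2 rose by 0.39 (edgeR adjusted p = 0.0252), Gli1 by 0.33 (edgeR adjusted p = 0.0434) and Mertk by 0.37 (edgeR adjusted p = 0.0492). The globin gene Hbb-b1, not on the erythroid list and named after its value was seen, rose by 0.98 (edgeR adjusted p = 0.0101). Runx2 did not pass, at 0.93 with an edgeR adjusted p of 0.0521, nor did Hopx, at -1.15 with 0.0513. Other genes that rose included Grhl3 (0.94, edgeR adjusted p = 0.0104), Zfp750 (1.78, edgeR adjusted p = 0.0124) and Gjb6 (1.68, edgeR adjusted p = 0.0272), 2 regulators and a gap junction protein of stratified epithelium, of which Zfp750 and Gjb6 were named after their values were seen. Their highest level was in Dlx5 heterozygous replicate 3, the library with the highest summed level of epithelial markers, though not of each marker. Zfp750 was at 6.26 CPM there, against 0.610 to 1.96 CPM in the other 7 libraries.

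The same genes can be set beside the other genotypes, which were compared with the same 4 wild type libraries, so these values are not independent of one another. All Dlx5 homozygous libraries and double heterozygous replicates 2 to 4 belonged to batch 1, and every wild type library to batch 2. The values of these 2 genotypes therefore lean on the batch term. For Runx2, whose wild type values lay close together, the log2 fold change was 1.01 in labelled Dlx5 heterozygous, 0.96 in Kat6a heterozygous, 1.13 in double heterozygous, 0.86 in Dlx5 homozygous and 0.81 in Kat6a homozygous libraries. Its SEs in this order were 0.189, 0.188, 0.216, 0.244 and 0.185. Its edgeR adjusted p values were 0.109, 0.104, 0.0202, 0.255 and 0.0202. For Creb5 the values in this order were 1.01, 0.96, 1.39, 1.46 and 1.00. For Hopx they were -1.22, -0.43, -1.39, -0.84 and -0.28, and for Edn1 -1.03, -0.41, -1.15, -0.83 and 0.01. For Col1a2 they were 0.43, 0.22, 0.66, 0.61 and 0.06. Dlx6os1 stood at -0.23, -0.39, -0.96, -0.82 and -2.10. Differences between these values were not tested.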

How the data were processed

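The library kit marks strand (Illumina TruSeq), per the labels' protocols. The submitters' processing notes name CASAVA 1.8.2, featureCounts and build mm10. Not given in the sources used here are the aligner, the annotation and whether counting used strand. The deposited values are unnormalized counts with gene lengths. Of 27179 entries, 568 without an identifier (at most 0.259% of a library) were left out, and 25275 of 26611 identifiers took a symbol from RefSeq.

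edgeR 4.0.16 in R 4.3.3 (filterByExpr, TMM, robust quasi-likelihood, Benjamini-Hochberg) was fitted on 24 libraries with 6 group means and a batch term, and on the 15 libraries of batch 2. Alternatives were DESeq2 1.42.0, limma 3.58.1 voom, RLE scaling, other filters, fewer libraries and a replicate block. Length-corrected offsets and the ribosomal protein and collagen lists were chosen after seeing the data. The procedure was tested on simulated data. Replicates differed by 3.04 to 23.3 times the chi-square per degree of freedom of sampling alone, so none was counted as a duplicate. The labels do not say what a replicate number marks. All 3 same-numbered pairs of batch 2 correlated above 0.1, but so did some unmatched pairs, so this level does not single out the numbers. From the data alone the numbers were taken to pair the libraries there, and not over all libraries. The calls of the blocked fit rest on this choice.

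Genes were named by rule: the Dlx family and Kat6a, the 12 of each direction with the smallest p and a mean of at least 1 CPM (no predicted or sex-linked genes), up to 10 called per alternative, and up to 4 per list. Others were named as list members or to describe an outlying library. Members, 27 lists and tests were chosen with earlier results of these data known.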

Additional observations from a re-analysis of the deposited data

Results flagged for a closer look

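Of 210 group values examined (totals, summed lists and named genes in the wild type and the labelled Dlx5 heterozygous group), 14 held a library whose gap to the others was large for 4 samples, and chance flags about 1 in 20 groups. Wild type replicate 1 had a total of 28.2 M counts against 11.5 to 12.4 M in the other wild type libraries, and Dlx5 heterozygous replicate 4 had 16.7 M against 10.4 to 11.3 M in its group. Wild type replicate 2 stood apart in the summed neuron and glia markers (609.1 CPM) and in Ppp1r17 (13.7 CPM), Grm2 (10.2 CPM) and Kcnmb2 (7.28 CPM), and Dlx5 heterozygous replicate 2 in Ppp1r17 (12.9 CPM) and Dlx6 (36.5 CPM, against 27.9 to 29.4 CPM). Dlx5 heterozygous replicate 3 stood apart in Krt5 (13.2 CPM), Pappa (10.4 CPM) and, on the low side, Eif4ebp1 (38.7 CPM against 51.6 to 54.0 CPM). The others were Aldh1a2 in wild type replicate 3 (3.81 CPM), the summed cell cycle genes in wild type replicate 4 (7123 CPM, against 7553 to 7637 CPM) and the summed pharyngeal endoderm markers in Dlx5 heterozygous replicate 4 (46.99 CPM, against 37.6 to 38.9 CPM).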

How the results depend on the processing

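edgeR's count of 0 over all libraries was also 0 with limma voom, RLE scaling, no filter, the stricter filter, only the 2 groups, no batch term, the replicate block and length-corrected offsets. It was 31 with DESeq2 and 7, all higher, without the neuron-rich replicate 2 libraries of 4 groups (Runx2, Fibin, Col6a3, Ppp1r17, Grm2, Kcnmb2 and Sstr1). Within batch 2 the count of 0 was 4 with DESeq2, 3 with limma voom, 1 with no filter, 3 without the 4 neuron-rich libraries and 45 with the replicate block. Leaving out each library in turn gave 0 to 1 in both fits. The 1 gene was 1700048O20Rik without Dlx5 heterozygous replicate 4 over all libraries and without Dlx5 heterozygous replicate 2 within batch 2, and Runx2 without Kat6a homozygous replicate 2. The cause was not tested.

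The 77 named genes gave 2768 values under the alternatives, of which 2718 kept direction and side of the threshold, 31 passed it in the same direction and 19 turned sign. Those that turned were near 0 or rested on the replicate 2 libraries. Dlx1 was -0.001 with the stricter filter, -0.036 without the 4 neuron-rich libraries, -0.053 without both replicate 2 libraries and -0.049 to 0.066 with each library left out. Dlx5 was 0.035 with limma voom, 0.002 without the 4 neuron-rich libraries, 0.013 with length-corrected offsets and -0.072 to 0.073 with each library left out. With each library left out Dlx6 was 0.000 to 0.205, Kat6a -0.007 to 0.231, Ppp1r17 -0.518 to 6.29 and Grm2 -0.657 to 8.38. Of 1044 list medians, 19 moved by more than the spread between replicates. In the comparison of only the 2 groups, Dlx5 heterozygous replicate 4 is the sole batch 1 library, so the batch term takes up its value.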

Other observations

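Genes around Dlx5 on chromosome 6 were counted after their values were seen. Of 698 genes tested on this chromosome 102, or 14.6%, had an unadjusted p under 0.05, the highest share of the 20 chromosomes listed, whose lowest was 8.73%. Within 20 Mb of Dlx5 it was 15 of 64 genes, or 23.4%, with 10 higher and 5 lower, against 11.3% of all genes. Within 10 Mb it was 10 of 42, or 23.8%, and within 40 Mb 22 of 160, or 13.8%. The 15 included Col1a2 (0.43), Mdfic (0.34), St7 (0.26) and Foxp2 (0.22) on the higher side and Asb4 (-0.37), Dlx6os1 (-0.23) and Ptprz1 (-0.54) on the lower. Within batch 2, 9 of the 64 had an unadjusted p under 0.05, against 7.79% of all genes. Of the 12 higher and 12 lower genes described above, Col1a2, Creb5, Mpp6 and Ruvbl1 lie on chromosome 6, the last 3 farther than 40 Mb from Dlx5. What part their place on the chromosome of the knockout had in their values was not tested. Asb4, which encodes a subunit of a ubiquitin ligase, averaged 154 ± 21 CPM (SD, n = 4) in wild type and 112 ± 13 CPM in labelled heterozygous libraries, and its log2 fold change was -0.37 (SE 0.13, edgeR adjusted p = 0.284).

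The unnamed gene 1700048O20Rik on chromosome 9 had the smallest adjusted p within batch 2. It was at 9.97, 10.1, 8.39 and 7.07 CPM in wild type and at 19.4, 14.4, 17.1 and 8.36 CPM in labelled Dlx5 heterozygous libraries. The 3 batch 2 libraries lay above all wild type libraries, and the batch 1 library lay inside the wild type range. The log2 fold change within batch 2 was 0.92, with an edgeR adjusted p of 0.0586 and a DESeq2 adjusted p of 0.000187, and over all libraries it was 0.77 (edgeR adjusted p = 0.122).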
